A study of Rattus norvegicus with 4 samples.

Results

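The genes described here are the cytosolic ribosomal protein genes of rat neural stem/progenitor cells (NSPCs). They were taken by symbol: Rpl or Rps followed by a digit, with Rplp0, Rplp1, Rplp2 and Rpsa added and the S6 kinase genes (Rps6k) left out. This gave 86 of the 16881 gene symbols. By their symbols, 77 are structural proteins of the ribosome, 31 of the small (40S) and 46 of the large (60S) subunit. A further 6 are paralogues of such proteins. The other 3 are Rps19bp1, a nucleolar partner of Rps19, and 2 entries named as pseudogenes, Rpl37a-ps1 and Rps4x-ps1. Fau, which encodes a 40S protein made as a fusion with a ubiquitin-like protein, falls outside the symbol rule and is given with the related genes.

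The cells were wild-type NSPCs on 1 of 2 culture platforms, PUCL@CNT1 or bare PUCL, named here as in the labels. Maintenance libraries came from cells kept for 24 h in knockout DMEM/F12 with StemPro Neural Supplement. Differentiation libraries came from cells that then spent a further 1.5 d in a neuronal medium, B-27 Plus, so that culture time differs along with the medium. Each of the 4 combinations was 1 library: PUCL@CNT1 in differentiation medium (6855984 counts), PUCL in differentiation medium (6580894), PUCL@CNT1 in maintenance medium (6035848) and PUCL in maintenance medium (6502918). Values of a gene are given in this order. The labels do not say whether the libraries came from separate cell preparations, so no p-value here measures the spread between cultures.

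The ribosome reads mRNA on its small subunit and joins amino acids on its large subunit. Cells need about equal amounts of most of its proteins, and vertebrate ribosomal protein mRNAs begin alike, with a C followed by a run of pyrimidines. This is the terminal oligopyrimidine (TOP) motif, through which mTOR signalling controls their translation. Proteins made in excess are degraded, and some free ones, Rpl5 and Rpl11 among them, bind Mdm2 and so raise p53. In neural stem cells high ribosome production goes with growth and division.

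The start sites carry a feature that was more frequent in these genes than in other genes. RefSeq promoters (GRCr8 assembly) were matched by symbol for 67 of the 86 genes. A C at the annotated start with at least 4 more C or T directly after it was found in 24 of them (35.8%), against 2.65% of the 8026 promoters of genes tested. A run of the same kind that began within 5 bases of the start was found in 61.2%, against 17.3% of genes tested. The runs were sought on the transcribed strand only. The motif CCGGAAG, sought on both strands over the 300 bases, was in 29.9% of the ribosomal protein promoters and 18.3% of those of genes tested; its reverse complement holds CTTCC, so it can overlap a run. The 6 windows below belong to the genes on which the comparisons turn. They hold 15 bases on each side of the boundary at the annotated start, so the 16th base is the annotated first base of the transcript, and capitals mark the pyrimidine run.
Rplp1 (chr8:71290858-71290887, minus strand): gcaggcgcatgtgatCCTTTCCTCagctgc
Rplp0 (chr12:46718376-46718405, minus strand): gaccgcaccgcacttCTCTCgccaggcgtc
Rplp2 (chr1:205975906-205975935, plus strand): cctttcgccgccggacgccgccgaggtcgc
Rpl17 (chr18:70856261-70856290, plus strand): tagccttcgcgcttcCTCTTCCTgttagcg
Rpl34 (chr2:221962269-221962298, minus strand): ccccttccttttcctCTTCCggggacggtg
Rps6 (chr5:106420526-106420555, minus strand): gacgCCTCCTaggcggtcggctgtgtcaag
Rplp1, Rplp0, Rpl17 and Rpl34 have the run at the annotated start. In Rps6 a run begins 11 bases before it, and in Rplp2 none lies within 5 bases of it in this window. Of the structural subunit genes, 62 had a matched promoter. Among these, the 40 with a run near the start had a median fitted platform log2 difference of 0.34. The 22 without one had 0.28. In single pairs the medians were 0.44 with a run and 0.43 without in differentiation medium, and 0.26 and 0.27 in maintenance medium, so they hardly differed; no test was made.

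All 86 genes had at least 10 counts in at least 1 library, the filter for the tests, and 84 had a count in every library. Levels are given as CPM after scaling of the library totals by TMM (scaled CPM). The kit reads the 3' ends of polyadenylated transcripts, so this scale is not divided by transcript length. Of the 86, 82 averaged 300 counts or more. Among these 82, the median level was 983 scaled CPM in PUCL@CNT1 differentiation, 780 in PUCL differentiation, 839 in PUCL@CNT1 maintenance and 759 in PUCL maintenance. Rps14, a 40S protein, was the highest in each library, with 5588, 4190, 4555 and 3922 scaled CPM. Next by mean level over the libraries came the 60S genes Rpl41 (2946), Rpl15 (2594), Rplp1 (2470) and Rplp2 (2226). Reads of 1 gene may also have been assigned to copies of it: RefSeq names 902 pseudogenes after these genes, for 79 of them at least 1 and for the median gene 11. How such reads were assigned is not given in the sources used here, so levels of single members are uncertain to that extent.

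Together the 86 genes held 9.71% of all counts in PUCL@CNT1 differentiation and 7.34% in PUCL differentiation, against 8.96% in PUCL@CNT1 maintenance and 7.41% in PUCL maintenance. Both PUCL@CNT1 libraries lay above both PUCL libraries. Summed scaled CPM was 1.34-fold higher on PUCL@CNT1 than on PUCL in differentiation medium and 1.19-fold higher in maintenance medium. The same sum was 1.16-fold higher in differentiation than in maintenance medium on PUCL@CNT1, and 1.02-fold higher on PUCL. By subunit, the 40S share was 4.23%, 3.07%, 3.86% and 3.14%, and the 60S share 5.42%, 4.22%, 5.04% and 4.22%. Counting error is small at this depth, so what limits these comparisons is the single library per group. In these bulk samples a smaller share of cells with high ribosome content and less of these mRNAs per cell cannot be told apart.

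**Figure D1:**
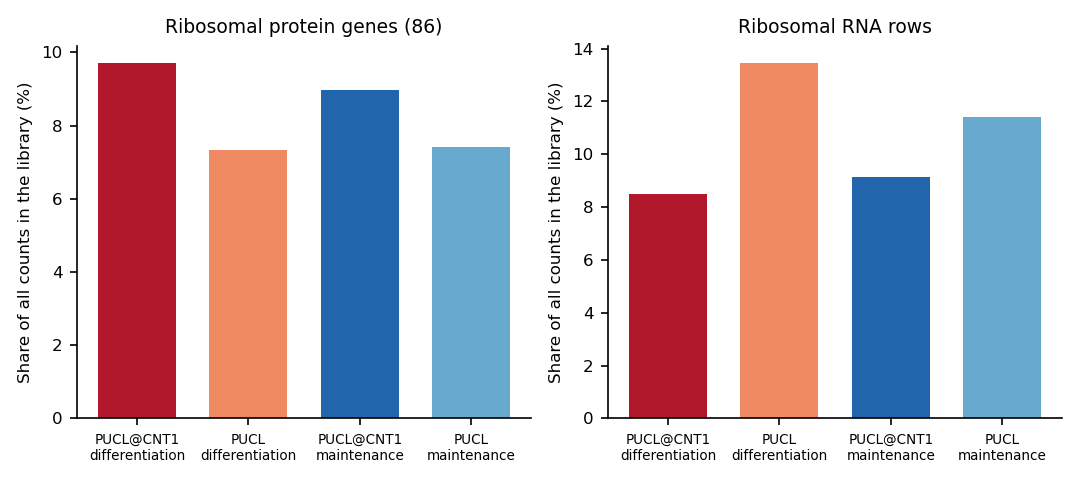
Share of all counts in each library, in percent, held by the 86 ribosomal protein genes (left) and by the ribosomal RNA entries (right), 1 bar per library. The ribosomal protein share is 9.71% and 8.96% on PUCL@CNT1 against 7.34% and 7.41% on PUCL, while the ribosomal RNA share is lower on PUCL@CNT1.

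The ribosomal RNA entries of the tables had the opposite order by platform. They summed to 8.49% of counts in PUCL@CNT1 differentiation and 13.4% in PUCL differentiation, against 9.14% in PUCL@CNT1 maintenance and 11.4% in PUCL maintenance. These entries overlap each other, and the kit is built for polyadenylated RNA. As a share of the counts outside the ribosomal RNA entries, the ribosomal protein genes held 10.6%, 8.48%, 9.86% and 8.36%, so the order by platform was the same without them. With those entries left out of the table before scaling, 4 ribosomal protein genes passed the platform test in place of 3.

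On PUCL@CNT1 nearly all ribosomal protein genes read higher than on PUCL, most of them by less than 1.5-fold. The fitted log2 difference was above 0 for 84 of the 86, against 5245 of the 10516 genes tested. Rpl39l and Rpl3l had counts in a single PUCL@CNT1 library each, which fixed their direction, and over the 82 genes that averaged 300 counts or more the count was 81. The fitted median was 0.34, against a value close to 0 over all genes tested. In single pairs of libraries the median log2 ratio was 0.43 in differentiation medium and 0.26 in maintenance medium, against 0.02 and -0.01 over all genes tested. A ratio above 0 in both media was found for 72 of the 86 (83.7%), against 24.5% of genes tested, and a ratio below 0 in both for 1 (1.16%), against 24.4%. The 518 other genes that averaged at least 2000 counts had medians of 0.09 in differentiation and 0.02 in maintenance medium. The 124 other genes that averaged at least 5000 counts, closer to the median of 5580 among the 82 well-counted members, had 0.17 and 0.02, and 42.7% of them were above 0 in both media. Counting intervals lay above 0 for 80 of the 86 in differentiation medium (93.0%, against 37.2% of genes tested) and below 0 for 1 (1.16%, against 35.3%). In maintenance medium they lay above 0 for 73 (84.9%, against 32.6%) and below 0 for 7 (8.14%, against 34.6%). Such intervals narrow with depth. Among the 124 other genes that averaged at least 5000 counts, they lay above 0 for 60.5% and below 0 for 32.3% in differentiation medium. In maintenance medium the shares of these 124 were 46.8% and 42.7%. The 67 mitochondrial ribosomal protein genes, which build the separate ribosome of mitochondria, had medians of 0.16 and -0.06.

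**Figure D2:**
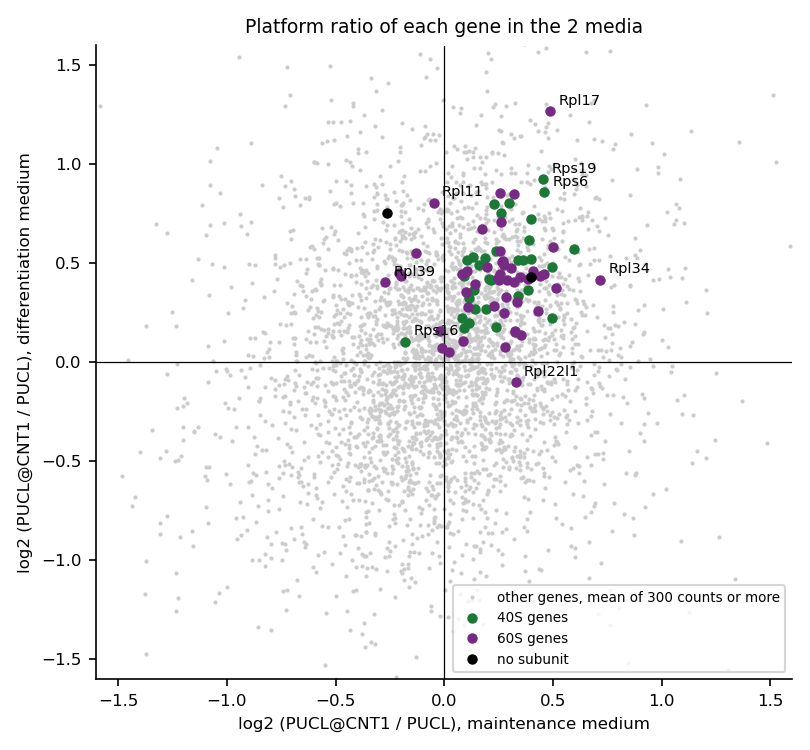
Log2 ratio of PUCL@CNT1 over PUCL in differentiation medium (y axis) against the same ratio in maintenance medium (x axis), 1 point per gene with an average of 300 counts or more; ribosomal protein genes are coloured by subunit and other genes are grey. Most ribosomal protein genes sit above 0 on both axes, with medians of 0.43 on the y axis and 0.26 on the x axis. Grey points beyond the axis limits are not drawn.

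Few single genes passed the test of the platform difference. The test was edgeR's quasi-likelihood F test with platform and medium as additive terms over the 4 libraries and Benjamini-Hochberg adjustment over all 10516 genes at 0.05. It called 3 ribosomal protein genes higher on PUCL@CNT1, Rps6, Rpl34 and Rpl17, where 0.209% of all genes tested were called higher. None was called lower, where 0.247% of all genes were. Of the 124 other genes that averaged at least 5000 counts, 3 were called higher and 5 lower. Calls upward were therefore not particular to ribosomal protein genes. At an unadjusted p under 0.05 there were 39 of 86 (45.3%), against 6.95% of all genes and 46 of those 124 highly counted genes. Limma-voom called 14 higher and DESeq2 8 higher, while scaling by DESeq2's size factors or by the upper quartile in edgeR called 0, as did each fit without 1 of the libraries. The calls therefore rest on the choice of test. The shares of 0.209% and 0.247% belong to the first fit only. Shares of all genes under the other tests are not given here, so those counts have no background beside them. The called genes are given below by their values.

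Rps6, the 40S protein that S6 kinase phosphorylates downstream of mTOR, had 1711 scaled CPM in PUCL@CNT1 differentiation, 943 in PUCL differentiation, 1683 in PUCL@CNT1 maintenance and 1223 in PUCL maintenance. Both PUCL@CNT1 libraries were above both PUCL libraries and nearly equal to each other. The fitted log2 difference was 0.66 (SE 0.158, edgeR adjusted p 0.0258), and the call held in 5 of 10 other tests. Rpl17, which lines the peptide exit tunnel, had 443, 184, 413 and 294 scaled CPM in the same order. Its PUCL differentiation library was the lowest, so its ratio was 2.41-fold in differentiation medium (95% counting interval of the log2 ratio 1.17 to 1.37) and 1.40-fold in maintenance medium. The fitted log2 difference of Rpl17 was 0.88 (SE 0.223, edgeR adjusted p 0.0457), a call that 3 of 10 other tests made too.

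Rpl34, a 60S protein, had 2493, 1866, 2566 and 1562 scaled CPM, so its ratio was larger in maintenance medium (1.64-fold) than in differentiation medium (1.34-fold). Its fitted log2 difference was 0.57 (SE 0.143, edgeR adjusted p 0.0429), called in 4 of 10 other tests. With any 1 library left out and only the platform term fitted, no call held: Rps6 had log2 values between 0.48 and 0.85, Rpl17 between 0.55 and 1.22 and Rpl34 between 0.44 and 0.70.

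**Figure D3:**
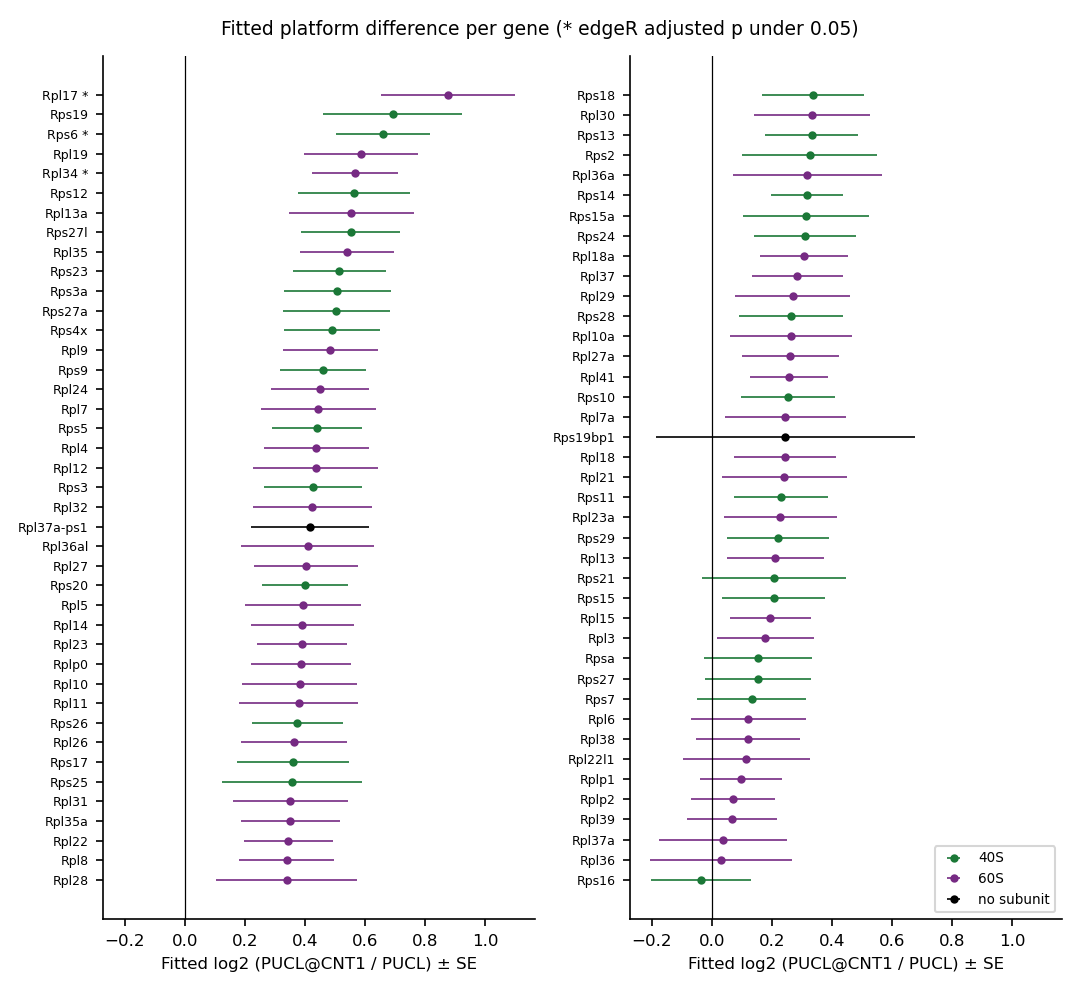
Fitted log2 difference between PUCL@CNT1 and PUCL from edgeR for 81 of the 82 ribosomal protein genes that averaged 300 counts or more, ordered by size from upper left to lower right; bars are 1 standard error of the fit and stars mark adjusted p under 0.05. Rpl17 is the highest at 0.88 and Rps16 is the only one of those drawn below 0, at -0.04.

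The remaining genes lay close to each other on the platform axis. Among the 82 genes that averaged 300 counts or more, the log2 ratios between the quartiles spanned 0.29 to 0.52 in differentiation medium and 0.12 to 0.35 in maintenance medium. Over all 3619 genes with such counts the quartiles were at -0.31 and 0.39, and at -0.28 and 0.26. The 31 genes of the 40S subunit had a median fitted log2 difference of 0.34 and the 46 of the 60S subunit also 0.34, with 30 of 31 and 46 of 46 above 0. By role, the 8 genes of the exit tunnel and its rim had a median of 0.40. The 4 of mRNA entry and decoding had 0.38, the 4 of the mRNA exit side 0.32, and the 4 of the stalk and its base 0.24. Rps19, which matures the small subunit and is mutated in Diamond-Blackfan anaemia in humans, had 386, 203, 286 and 209 scaled CPM (fitted log2 0.69, SE 0.232, edgeR adjusted p 0.237). Rpl19, a 60S protein, had 823, 457, 615 and 492 (0.59, SE 0.190, edgeR adjusted p 0.203).

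At the other end stood Rps16, whose tail reaches the P site, with 1222, 1137, 785 and 889 scaled CPM and a fitted platform log2 of -0.04 (SE 0.167). Rpl36 (0.03), Rpl37a (0.04), Rpl39 (0.07) and Rplp2 (0.07) were the next lowest among genes averaging at least 100 counts. Their counting intervals are narrow, and each has a standard error of the fit larger than its value. The platform ratios in differentiation and in maintenance medium share no library, and across the 82 members they had Pearson's r 0.19 and Spearman's rho 0.20. This is a description over points that share the depth and scaling of their libraries.

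The platform ratio was larger in differentiation than in maintenance medium for 66 of the 86 genes (76.7%, against 51.3% of all genes tested). The median change was 0.18 on the log2 scale, against 0.03 over all genes tested. The counting interval of the change lay above 0 for 56 genes (65.1%, against 32.9%) and below 0 for 9 (10.5%, against 30.6%). The 124 other genes that averaged at least 5000 counts had a similar change, with a median of 0.16 and an interval above 0 for 62.9%, so a larger platform ratio in differentiation medium was not particular to ribosomal protein genes. With 1 library per group this change has no test. Rpl11, which binds 5S RNA with Rpl5, had 830 scaled CPM in PUCL@CNT1 differentiation, 475 in PUCL differentiation, 429 in PUCL@CNT1 maintenance and 444 in PUCL maintenance. The first library stood apart and the other 3 lay together, giving platform log2 ratios of 0.81 in differentiation and -0.05 in maintenance medium. Rpl5, its partner, had 609, 438, 565 and 456, with ratios of 0.48 and 0.31.

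Genes listed on several rows of the tables need care here. There are 14 such genes with 34 rows, and their rows were summed. The rows of 1 gene often held like counts: the 2 rows of Rps19 had 1307 and 1259 counts in PUCL@CNT1 differentiation, and the 3 rows of Rpl39 had 5827, 5778 and 4055. These 14 had a median change of the platform ratio of 0.36, against 0.15 for the 72 genes with 1 row. Rpl39, at the exit tunnel, had 2355, 1779, 1517 and 1830 scaled CPM, so PUCL@CNT1 was higher than PUCL in differentiation medium (log2 0.40) and lower in maintenance medium (log2 -0.27). Rpl38, needed in the mouse for translation of Hox mRNAs, had 1187, 877, 769 and 882, with log2 ratios of 0.44 and -0.20. The 3 genes called for the platform each have 1 row.

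Between the media the ribosomal protein genes differed little as a set, and the stalk gene Rplp1 had the highest fitted value among the 82 well-counted genes. The median log2 ratio was 0.16 on PUCL@CNT1 and -0.01 on PUCL, against 0.03 and -0.01 over all genes tested, and the fitted median was 0.08. Other scalings, filters and subsets put the PUCL median between -0.06 and 0.02. The test called 1 ribosomal protein gene higher in differentiation medium, Rplp1, where 1.8% of all genes were called higher, and none lower, where 1.02% were. At an unadjusted p under 0.05 there were 10 of 86 (11.6%), a share close to the 12.1% of all genes tested. Highly counted genes gave a larger share: 61 of the 124 other genes that averaged at least 5000 counts. Of these 124, the test called 24 higher and 6 lower. Ribosomal protein genes thus passed less often than other genes of high count. Counting intervals lay above 0 for 59 of the 86 on PUCL@CNT1 (68.6%, against 37.7% of all genes) and below 0 for 14 (16.3%, against 35.1%). The 124 other genes that averaged at least 5000 counts had intervals above 0 on PUCL@CNT1 for 65.3% and a median of 0.22, so the values on PUCL@CNT1 were not particular to ribosomal protein genes either. On PUCL they lay above 0 for 30 (34.9%, against 36.2%) and below 0 for 33 (38.4%, against 36.3%). DESeq2 also called 1 higher, limma-voom 5, and both called 0 lower. The share of all genes that these other tests called is not given here.

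**Figure D4:**
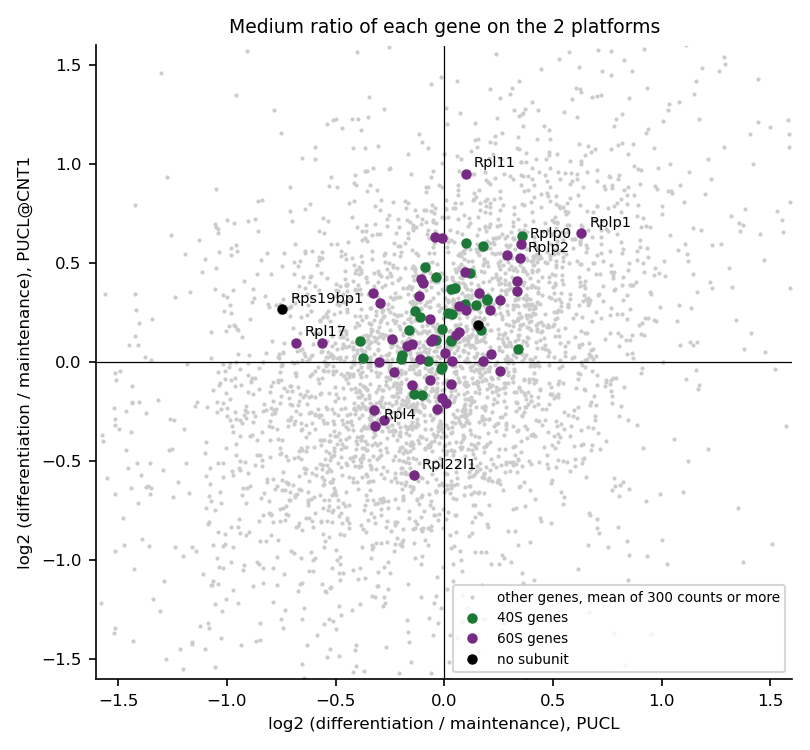
Log2 ratio of differentiation over maintenance medium on PUCL@CNT1 (y axis) against the same ratio on PUCL (x axis), 1 point per gene with an average of 300 counts or more; ribosomal protein genes are coloured by subunit and other genes are grey. Ribosomal protein genes form a narrow cloud with medians of 0.16 on the y axis and -0.01 on the x axis, with Rplp1 at the upper right at 0.65 and 0.63. Grey points beyond the axis limits are not drawn.

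The stalk is the flexible arm of the 60S subunit that recruits and activates the elongation factors. It is built from Rplp0, which anchors it, and dimers of the small acidic proteins Rplp1 and Rplp2, with Rpl12 at its base. Rplp1 had 3121 scaled CPM in PUCL@CNT1 differentiation, 2898 in PUCL differentiation, 1987 in PUCL@CNT1 maintenance and 1874 in PUCL maintenance. Both differentiation libraries lay above both maintenance libraries, by 1.57-fold on PUCL@CNT1 and 1.55-fold on PUCL. The fitted log2 difference was 0.64 (SE 0.137, edgeR adjusted p 0.00141), and the call held in 9 of 10 other tests. It was lost with only the medium term fitted (adjusted p 0.121). It was also lost in that fit without any 1 of the 4 libraries, where the log2 difference was 0.58 to 0.69 and the edgeR adjusted p 0.103 to 0.915.

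Rplp0 had 1395, 981, 924 and 767 scaled CPM. Each platform's differentiation library exceeded its maintenance library (fitted log2 0.48, SE 0.167, edgeR adjusted p 0.119). Rplp2 had 2702, 2421, 1877 and 1904 (0.44, SE 0.140, edgeR adjusted p 0.0739), with both differentiation libraries above both maintenance libraries. Rpl12 had 466, 338, 389 and 293 (0.24, SE 0.208, edgeR adjusted p 0.836), with a larger fitted platform log2 of 0.44. The median fitted medium difference of these 4 genes was 0.46, with all 4 above 0 on both platforms. The fitted platform log2 values of Rplp1 and Rplp2 were 0.10 and 0.07.

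**Figure D5:**
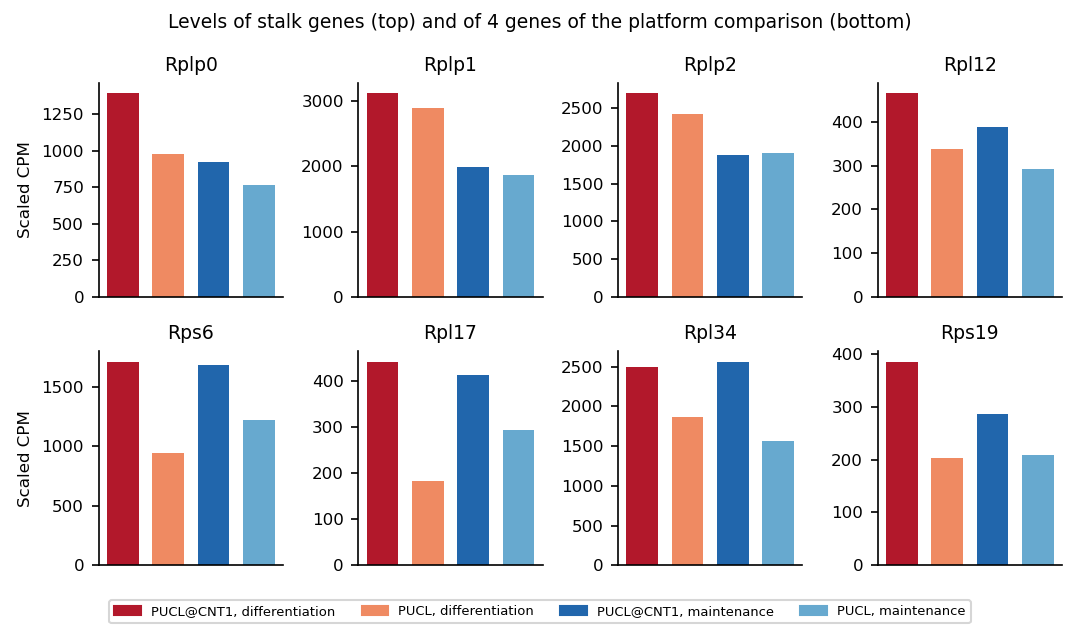
Scaled CPM in each of the 4 libraries for the stalk genes Rplp0, Rplp1, Rplp2 and Rpl12 (top) and for Rps6, Rpl17, Rpl34 and Rps19 (bottom), 1 bar per library, each axis starting at 0. Rplp1 stands at 3121 and 2898 in differentiation against 1987 and 1874 in maintenance medium, while Rps6 separates by platform, at 1711 and 1683 on PUCL@CNT1 against 943 and 1223 on PUCL.

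Outside the stalk, Rpl11 had a fitted medium log2 difference of 0.53 (edgeR adjusted p 0.166), but its ratio was 0.95 on PUCL@CNT1 and 0.10 on PUCL. Without the PUCL differentiation library and with only the medium term fitted, Rpl11 was called (log2 0.93, edgeR adjusted p 0.0379). Rps16 had 0.50 (adjusted p 0.0983), with ratios of 0.64 and 0.36. At the low end were Rpl22l1 (-0.36), Rpl4 (-0.32), Rpl17 (-0.29), Rpl24 (-0.28) and Rpl36 (-0.28), none with an edgeR adjusted p under 0.48. Rpl4, a 60S protein at the exit tunnel, had the same log2 ratio on both platforms, -0.32, with 808, 597, 1009 and 745 scaled CPM. Rpl24, which joins the large subunit late, also had like ratios, -0.29 and -0.28. Rpl17 did not: its ratio was 0.10 on PUCL@CNT1 and -0.68 on PUCL.

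The platforms differed in the direction of many small medium ratios. The ratio was above 0 on both platforms for 37 of the 86 genes (43.0%, against 27.2% of all genes tested) and below 0 on both for 14 (16.3%, against 26.7%). It was above 0 on PUCL@CNT1 and below 0 on PUCL for 30 of the 86, against 2049 of the 10516 genes tested. The reverse held for 3 of the 86, against 1895 of the 10516. Of the 124 other genes that averaged at least 5000 counts, 59 were above 0 on both platforms and 33 below 0 on both. Another 27 of them were above 0 on PUCL@CNT1 and below 0 on PUCL, and 5 had the reverse. The larger share above 0 on both platforms was thus not particular to ribosomal protein genes. The medium ratios on the platforms share no library, and across the 82 members they had Pearson's r 0.42 and Spearman's rho 0.47, a description over points that share depth and scaling. The sign of the fitted median depended on single libraries: with only the medium term fitted it was -0.03 without PUCL maintenance and -0.18 without PUCL@CNT1 differentiation, and 0.24 without PUCL@CNT1 maintenance and 0.30 without PUCL differentiation.

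Paralogues and symbols that are no subunit were read apart. Rps27l, the paralogue of Rps27 and a known p53 target, had 1699, 973, 1118 and 908 scaled CPM, highest in PUCL@CNT1 differentiation. Its fitted log2 was 0.55 for the platform (SE 0.164, edgeR adjusted p 0.129) and 0.35 for the medium (edgeR adjusted p 0.346). Rps27 itself had 883, 755, 723 and 683, with 0.15 and 0.22. Rpl22l1, the paralogue of Rpl22, had 307, 330, 457 and 364, and so was lower in differentiation than in maintenance medium on both platforms, while Rpl22 had 1935, 1618, 1929 and 1430. Rpl36a and Rpl36al, a near-identical pair, had 217, 176, 216 and 172 and 345, 234, 344 and 288, with fitted platform values of 0.32 and 0.41.

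The rare paralogues gave no usable level. Rpl39l had counts only in PUCL@CNT1 maintenance, 19 of them, which put it at least 6.69-fold above PUCL maintenance when a count of 0 is set at 3 counts per library. Rpl3l had counts only in PUCL@CNT1 differentiation, 20 of them, at least 6.48-fold above PUCL differentiation. Rps4y2 had 12.03, 12.22, 3.04 and 6.82 scaled CPM, against 1408, 1009, 1433 and 1015 for its paralogue Rps4x. The pseudogene entry Rps4x-ps1 had 5, 5, 13 and 7 counts. Rpl3l, Rpl39l and Rps4x-ps1 passed the filter only through the library in which each was high, so their direction was partly fixed by it. They are among the 86 in the counts above. Over the 82 well-counted genes, counting intervals of the platform ratio lay above 0 for 79 in differentiation and 72 in maintenance medium, and those of the medium ratio on PUCL@CNT1 for 57. Rps19bp1 had 57.2, 33.9, 47.4 and 56.9 scaled CPM. PUCL@CNT1 was higher in differentiation medium (log2 0.75) and lower in maintenance medium (log2 -0.26), and the change of 1.02 was the only one past the size rule of 2-fold with the nearer 95% bound beyond 1.5-fold, which 15.4% of all genes tested passed upward. For single pairs the same rule was passed upward by Rpl17 and Rpl3l for the platform in differentiation medium (15.2% of all genes tested), by Rpl39l for the platform in maintenance medium (12.1%), by Rps4y2 and Rpl3l for the medium on PUCL@CNT1 (16.5%), and by no ribosomal protein gene for the medium on PUCL (16%). Downward it was passed by Rpl39l for the medium on PUCL@CNT1 (14.5%) and by none for the medium on PUCL (15.2%), the platform in maintenance medium (13.9%) or the platform in differentiation medium (15.6%). None had a change past it downward (14.1%).

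A list of 21 other genes, chosen as genes with TOP mRNAs, was read beside the ribosomal protein genes. Not all of them encode translation machinery, and their start sites were not examined here. All 21 had a fitted platform difference above 0, with a median of 0.18. Pabpc1, which binds poly(A) tails, rose to 1210 and 1022 scaled CPM on PUCL@CNT1 in differentiation and maintenance medium, against 759 and 646 on PUCL (fitted log2 0.67, SE 0.170, edgeR adjusted p 0.0457). The elongation factor gene Eef1a1 had 1150 and 986 on PUCL@CNT1, against 881 and 862 on PUCL (0.29, edgeR adjusted p 0.831). Fau had a fitted platform value of 0.12. For the medium, 1 of the 21 rose, the nucleoside diphosphate kinase gene Nme2 (0.58, edgeR adjusted p 0.0318). Npm1, the nucleolar chaperone nucleophosmin, fell (-0.80, edgeR adjusted p 0.00945), with 378 and 312 in differentiation and 660 and 539 in maintenance medium on PUCL@CNT1 and PUCL. Across the 10516 genes, 1.8% rose and 1.02% fell with the medium.

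Genes that assemble ribosomes read lower in differentiation than in maintenance medium. Of 46 assembly and nucleolar genes tested, 3 fell in differentiation medium, where 1.02% of all genes tested fell. None rose, where 1.8% of all genes did. The fitted value was above 0 for 7 of the 46, against 5276 of the 10516 genes tested. The median was -0.44, against a value close to 0 over all genes tested. The ribosomal protein median of 0.08 is set beside it with no test of the difference. Ncl, the nucleolin gene, had 588 and 479 scaled CPM in differentiation medium on PUCL@CNT1 and PUCL, against 1001 and 793 in maintenance medium (fitted log2 -0.75, edgeR adjusted p 0.00645). Dkc1, the pseudouridine synthase of guided RNA modification, fell by 0.82 (edgeR adjusted p 0.00321), and Wdr43, of the small subunit processome, fell by 1.04 (edgeR adjusted p 0.00136). On the platform axis the median was 0.08, and Nop58, a core protein of guide RNA particles, rose on PUCL@CNT1 (0.76, edgeR adjusted p 0.0193), with 913 and 1099 in differentiation and maintenance medium, against 487 and 722 on PUCL. Of 13 genes of RNA polymerase I and its factors, which make ribosomal RNA, Taf1d fell with the medium (-0.83, edgeR adjusted p 0.00485) and none was called for the platform.

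Of 17 tested genes of mTOR signalling and repressors of ribosomal protein translation, 1 was called. It was higher for the medium, where 1.8% of all genes tested were. Ddit4, an inhibitor of mTOR complex 1, rose in differentiation medium (fitted log2 1.89, SE 0.276, edgeR adjusted p 5.88e-07), with 220 and 311 scaled CPM in differentiation medium on PUCL@CNT1 and PUCL, against 45.6 and 108 in maintenance medium. Of 5 tested genes of the p53 arm that free ribosomal proteins act on, Cdkn1a and Ccng1 rose in both terms. Across all genes tested, 0.209% were called higher for the platform and 1.8% for the medium. Cdkn1a, the cell cycle inhibitor p21, had 702 and 348 on PUCL@CNT1 in differentiation and maintenance medium, against 280 and 216 on PUCL. Its fitted log2 was 1.01 for the platform (edgeR adjusted p 0.0056) and 0.70 for the medium (edgeR adjusted p 0.0498). Mdm2 had 129, 49.6, 50.7 and 63.1 scaled CPM and was not called (platform edgeR adjusted p 0.973).

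The labelled cell type was checked by markers. Of 14 NSPC markers 13 had counts (Msi1 was at 0), and their summed level was 11407, 9237, 7415 and 7186 scaled CPM. Vim, a filament gene, made up most of that sum (7634, 4814, 4795 and 4314), and without it the other markers summed to 3773, 4424, 2621 and 2872, which is lower on PUCL@CNT1 than on PUCL in both media. The 12 NSPC markers tested had a median fitted platform log2 of -0.15, with 4 above 0. Among markers of other cell types, all 6 microglial genes were at 0 in each library. Endothelial markers (3 of 6, with Pecam1, Cdh5 and Tek at 0) summed to 29.5, 2.78, 17.6 and 14.4 scaled CPM, from Kdr, Flt1 and Cldn5. Counted markers of mural cells and fibroblasts (4 of 7, with Rgs5, Dcn and Lum at 0) summed to 364, 500, 763 and 1084 scaled CPM. Astrocyte markers (6 of 7, Slc1a2 at 0) summed to 481, 993, 502 and 520, oligodendrocyte lineage markers (8 of 8) to 1534, 1520, 822 and 928, and neuron markers (7 of 8, Syp at 0) to 55.5, 91.4, 123 and 141. The mural and neuron sums were lower and the oligodendrocyte sum higher in differentiation than in maintenance medium. Map2 made up most of the neuron sum (35.8, 62.95, 98.3 and 83.7), and the other neuron markers summed to 19.7, 28.5, 24.3 and 56.9. The medium ratio was below 0 on both platforms for 5 of the 7 neuron markers. It was above 0 on both for 1, Dcx (9.18, 12.2, 6.24 and 7.28). Tubb3 was higher in differentiation medium on PUCL@CNT1 only. The mural sum was nearly all Acta2 (343, 499, 747 and 1049), while Col1a1 had 13.2, 1.08, 0.16 and 12.7. The part of any of these in the ribosomal protein values was not tested.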

How the data were processed

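Total RNA was made into Lexogen QuantSeq 3' libraries, per the labels' protocols. The authors deposited raw counts per gene symbol; the submitters' processing notes name Bowtie2 and bedtools as tools and rn6 as build, and versions, annotation, strand setting and handling of reads with several matches are not given in the sources used here. The members and the gene lists were chosen with earlier results of these data known. Of 17048 rows, those of 1 symbol were summed (149 symbols), and a gene was tested where its highest library held at least 10 counts (10516 genes). Scaling was TMM. The test was edgeR 4.0.16's quasi-likelihood F test (R 4.3.3) with medium and platform as additive terms, 1 residual degree of freedom and spread pooled over genes (87.2 prior degrees of freedom), so a p rests mostly on other genes' spread. The script was tested on simulated data. Pairs of libraries have no test: ratios used a prior count of 0.5, with exact 95% Clopper-Pearson intervals for counting error only. Reads carry no molecular identifiers.

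Named genes were those called, those past the size rule with a mean of 100 counts or more, the 5 highest by level, the 5 highest and 5 lowest of each term, a set of functional genes and paralogues, and the members that are no subunit; other members are named as examples chosen after their values were seen. Alternatives were other scalings, filters, DESeq2 1.42.0, limma-voom (limma 3.58.1), single-term fits with and without each library, subsets of members, another size rule and another prior count. Promoters came from RefSeq (GRCr8), matched by symbol; no coordinates of the rn6 build were used. Values of some genes are not reported here.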

Additional observations from a re-analysis of the deposited data

Results flagged for a closer look

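For 8 genes of the named set the same difference had opposite signs in the other setting. Their counting intervals lay on opposite sides of 0 in single libraries, and the difference between settings was not tested. Other members were not screened, and some met the same rule. Rpl38 had platform log2 ratios of 0.44 in differentiation and -0.20 in maintenance medium, and Rpl13 had 0.55 and -0.13. The share of all genes that met the rule is not given here. The log2 ratio of differentiation over maintenance medium was 0.12 on PUCL@CNT1 and -0.052 on PUCL for Rpl15, 0.10 and -0.68 for Rpl17, 0.42 and -0.11 for Rpl19, -0.042 and 0.26 for Rpl34, 0.64 and -0.041 for Rpl39, and 0.27 and -0.75 for Rps19bp1. The log2 ratio of PUCL@CNT1 over PUCL was -0.10 in differentiation and 0.33 in maintenance medium for Rpl22l1, 0.40 and -0.27 for Rpl39, 0.10 and -0.18 for Rps16, and 0.75 and -0.26 for Rps19bp1. Only counting error is covered, and several of these ratios are close to 0.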

How the results depend on the processing

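The median platform difference stayed above 0 in every alternative run (fitted 0.31 to 0.36; without 1 library and with only the platform term, 0.29 to 0.41). The count of genes called higher for the platform, 3, was 0 with DESeq2 size factors, upper quartile, no filter, a mean of 300 counts or more and only the platform term, 1 with TMM from other genes, 8 with DESeq2 and 14 with limma-voom; without 1 library it was 0 throughout. The count for the medium, 1, was 2 with ribosomal RNA entries left out, 5 with limma-voom, 0 with only the medium term and 0 to 1 without 1 library, where the fitted median was -0.032 without PUCL maintenance, 0.24 without PUCL@CNT1 maintenance, 0.30 without PUCL differentiation and -0.18 without PUCL@CNT1 differentiation. With total counts the fitted medium median was 0.0073 and that on PUCL@CNT1 0.069. Log2 ratios of summed CPM were, for medium on PUCL, 0.049 (DESeq2 size factors), -0.013 (total counts) and 0.059 (upper quartile); for medium on PUCL@CNT1, 0.11 (total counts), 0.22 (upper quartile) and 0.22 (TMM from other genes); for platform in maintenance medium, 0.27 (total counts) and 0.27 (upper quartile); and for platform in differentiation medium, 0.41, 0.40, 0.43 and 0.43 in the order DESeq2 size factors, total counts, upper quartile and TMM from other genes. A looser size rule of 1.5-fold gave 1 gene higher and 2 lower for medium on PUCL, 10 higher for medium on PUCL@CNT1, 3 higher and 1 lower for platform in maintenance medium and 15 higher for platform in differentiation medium. At the 2-fold rule 12.1% to 16.5% of all genes tested already passed in each direction of each pair. The looser rule passes at least as many. Shares of all genes under the alternatives are not given here, so no excess is read from these counts. Of 1084 values of named genes under alternatives, 1034 kept their direction and side of the threshold, 35 lost and 15 gained the threshold. The causes were not tested. No paired analysis was possible because each group has 1 library and the labels give no replicate numbers.

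With 1 library per group, neither biological nor library variation within a group was measured. Reads of near-identical copies could not be separated from those of single genes. Medium and time in culture cannot be told apart.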
